A study of Mus musculus with 2 samples.

Results

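Complement and coagulation are cascades of secreted proteases, and the 36 genes described here encode their components, regulators and receptors, chosen by the gene name printed in the array files. All 36 of 36 genes were on both arrays, among 19505 genes named there, and 58 probes represented them. The study set the brown fat of mice lacking PKGI (cGMP-dependent protein kinase I, gene Prkg1) against that of wild type littermates, all on the C57BL/6N background. Genotypes are written KO and WT. The tissue array compared untreated brown adipose tissue of a KO mouse, in the red dye Cy5, with that of a WT littermate, in the green dye Cy3. The adipocyte array compared brown adipocytes that had been differentiated in vitro from brown fat precursors, those of a KO mouse in Cy3 and those of a WT littermate in Cy5. The labels give neither the age nor the sex of the mice, nor the time in culture. Each comparison rested on 1 array and 1 RNA sample per genotype, so there was no replicate, no test and no p-value, and dye and genotype cannot be told apart for any 1 gene. The statements below therefore describe 4 RNA samples.

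Complement is a blood and tissue defence system in which C1q, or mannose-binding lectins, recognise a surface and start the cleavage of C4, C2 and C3. The alternative pathway, formed by C3, factor B, factor D and properdin, amplifies that cleavage, and membrane and plasma regulators hold it back on the body's own cells. Coagulation starts when tissue factor binds factor VII, ends in thrombin and cross-linked fibrin, and is opposed by anticoagulants and by plasminogen activators. Most plasma components are made by the liver, C1q is made chiefly by macrophages, and adipocytes are a known source of factor D and C3.

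Ratios are given as log2 of KO over WT, so that -1 and 1 stand for a 2-fold lower and a 2-fold higher signal in KO. Levels are log2 intensities after normalization and are set only against the other genotype on the same probes. Probes not well above background in either channel were left out, and the remaining probes of a gene were averaged. The pooled SD between repeated spots of 1 probe was 0.10 in tissue and 0.09 in adipocytes, and it covers spotting and scanning only.

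In cultured adipocytes, 8 of the 32 genes measured were at least 2-fold lower in KO: the 3 C1q chains, C3, Cfb, Cd55, C3ar1 and F13a1. They made up 25.0% of these genes, against 4.17% of the 15115 genes measured on that array. F3, F2r and Tfpi were at least 2-fold higher in KO, 9.38% of the genes against 2.49% of all genes measured. The median was nevertheless -0.01, with 16 genes below 0 and 16 above, and the range ran from -1.52 to 1.54. In the tissue, 0 of 34 genes passed 2-fold in either direction, where 2.44% of 15616 genes were lower and 0.800% higher, the median was -0.06 and the range -0.54 to 0.58. Of 34 genes there, 32 lay within 0.5 of 0, where 85.1% of all genes did. In culture 11 of 32 did, against 76.8% of all genes. Of the 31 genes measured on both arrays, 0 passed 2-fold on both, against 0.476% of the 14275 genes measured on both.

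The counts depended on how the background was corrected and how the dyes were balanced. With the ratios that the scanner software (Feature Extraction) computed, 8 genes were lower and 7 higher in the KO culture, against 6.32% and 5.80% of all genes, and in tissue 0 were lower and 1, C3ar1, higher, against 6.08% and 8.98%. With median centring in place of the intensity-dependent loess curve, 9 were lower and 1, F3, higher in culture, against 8.24% and 1.28%, and in tissue 0 passed in either direction, against 2.62% and 4.30%. With no offset in the background correction, 8 were lower and 5 higher in culture, against 5.59% and 4.08%, and in tissue again 0 passed, against 5.35% and 2.47%. The same 8 genes were lower in culture in each of these settings.

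**Figure D1:**
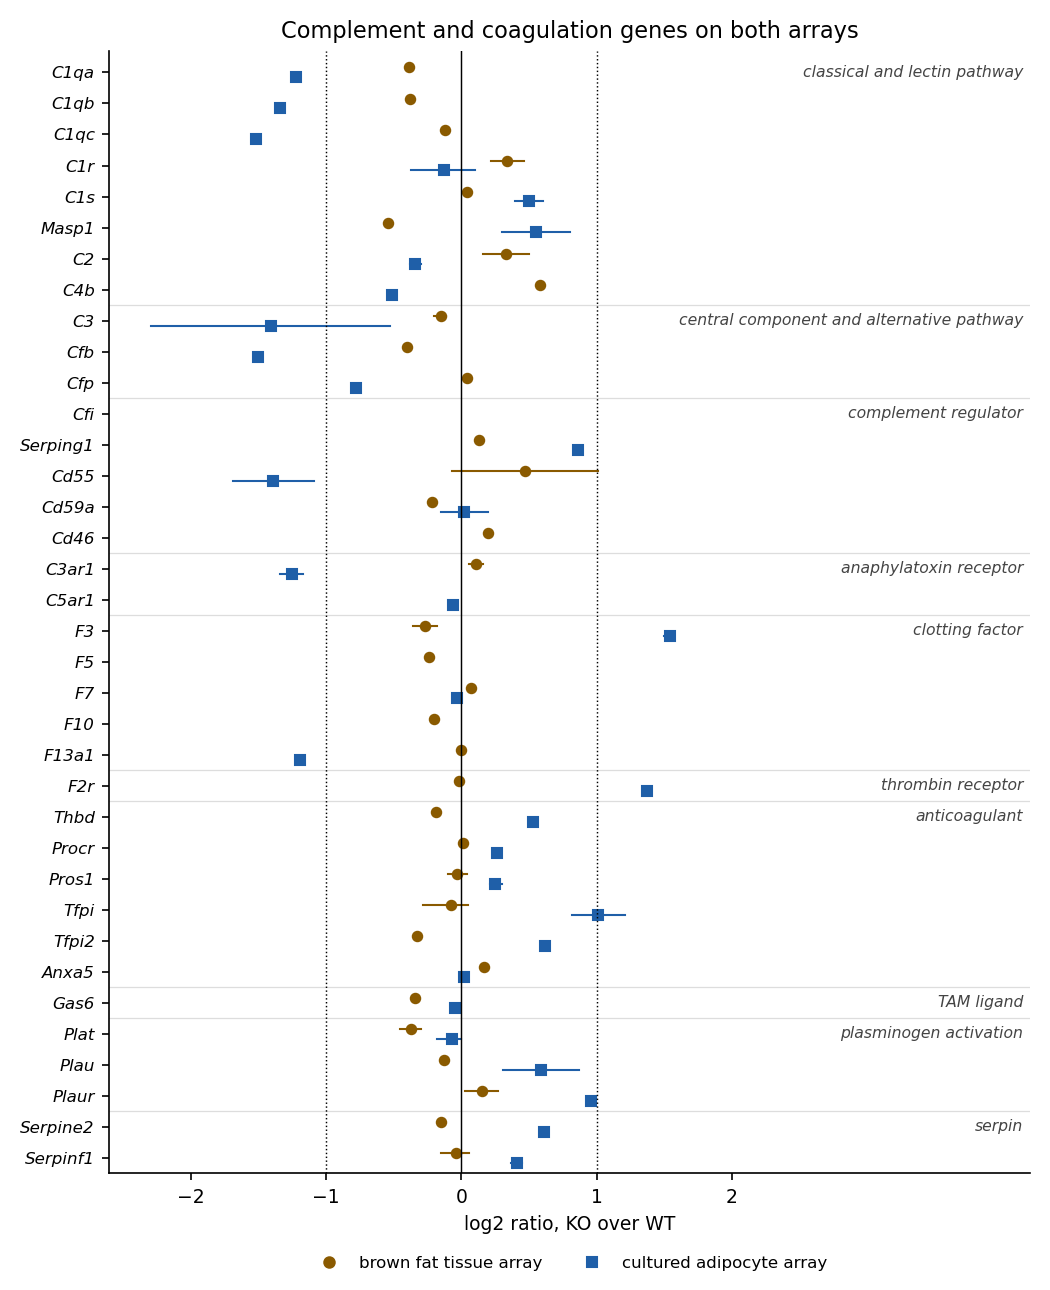
Log2 ratio of KO over WT for each gene in tissue (circles) and in cultured adipocytes (squares), with genes ordered by role and horizontal lines spanning a gene's kept probes. Dotted lines mark a 2-fold difference: no tissue value lies beyond them, while 8 adipocyte values lie to the left and 3 to the right, and a gene with no symbol on an array was not well above background there.

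The chains of C1q, the recognition molecule of the classical pathway, were lower in the KO culture. C1qa had log2 levels of 14.98 in WT and 13.76 in KO adipocytes, and of 11.05 in WT and 10.65 in KO tissue. C1qb stood at 14.34 and 13 in WT and KO adipocytes and at 11.15 and 10.77 in WT and KO tissue. C1qc stood at 15.40 and 13.88 in the adipocytes and at 12.49 and 12.37 in the tissue, again WT before KO. The KO culture was thus 2.33-fold lower for C1qa (log2 ratio -1.22), 2.53-fold lower for C1qb (-1.34) and 2.88-fold lower for C1qc (-1.52). In tissue the log2 ratios were -0.39, -0.38 and -0.12. Without loess they were 0.13, 0.15 and 0.46, where the median of all genes was 0.25. Relative to that median they were -0.13, -0.11 and 0.21, so that no direction is given for the tissue. Each chain was read by 1 probe, all on chromosome 4 in the array file's coordinates (genome build not given in these sources): 136259100 to 136259159 for C1qb, 136268288 to 136268347 for C1qc and 136274931 to 136274990 for C1qa. In the RefSeq gene table C1qb, C1qc and C1qa are direct neighbours, with 0 genes between C1qb and C1qc and 0 between C1qc and C1qa.

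Genes of the complement group that were lower together in culture can be set side by side at their start sites. The 250 bases before the RefSeq start (GRCm38.p6), written 5′ to 3′ on the gene's strand, are shown for C1qb, C1qc, C3ar1 and C3, which each held a searched motif. F13a1, whose RefSeq entry has 2 start sites with matches in 1 of them, is not printed, nor is Cd55, whose window held 0 matches of any of these motifs. C1qa and Cfb had no entry. Capitals mark the letters GAGGAA (the core of sites bound by PU.1, a factor of macrophages), TGANTCA (AP-1) or TTNNGNAA (C/EBP), searched on both strands.
C1qb (chr4:136886201-136886450, minus strand): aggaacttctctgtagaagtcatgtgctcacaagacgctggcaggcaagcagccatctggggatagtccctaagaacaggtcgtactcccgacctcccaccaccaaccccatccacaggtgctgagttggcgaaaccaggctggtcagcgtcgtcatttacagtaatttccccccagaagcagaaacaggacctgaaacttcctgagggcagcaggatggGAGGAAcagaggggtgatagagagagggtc
C1qc (chr4:136892915-136893164, minus strand): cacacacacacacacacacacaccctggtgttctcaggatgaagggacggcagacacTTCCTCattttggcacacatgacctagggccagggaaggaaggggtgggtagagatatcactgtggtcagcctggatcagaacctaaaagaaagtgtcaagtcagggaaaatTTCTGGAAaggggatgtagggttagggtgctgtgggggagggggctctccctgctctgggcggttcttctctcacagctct
C3ar1 (chr6:122856158-122856407, minus strand): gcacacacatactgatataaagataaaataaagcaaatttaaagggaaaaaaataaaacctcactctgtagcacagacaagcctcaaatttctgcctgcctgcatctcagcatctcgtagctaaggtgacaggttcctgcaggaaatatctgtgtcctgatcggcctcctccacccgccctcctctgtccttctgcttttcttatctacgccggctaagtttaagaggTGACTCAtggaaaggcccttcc
C3 (chr17:57228137-57228386, minus strand): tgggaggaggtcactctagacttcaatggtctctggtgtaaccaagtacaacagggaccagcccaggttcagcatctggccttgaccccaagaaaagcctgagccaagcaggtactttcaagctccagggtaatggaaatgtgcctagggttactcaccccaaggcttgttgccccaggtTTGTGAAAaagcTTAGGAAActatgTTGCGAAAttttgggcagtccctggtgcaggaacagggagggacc

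GAGGAA lay at positions -30 to -25 of C1qb and, on the opposite strand as TTCCTC, at -193 to -188 of C1qc. C1qc also held 1 C/EBP match, at -81 to -74. The C3 window held 3 C/EBP matches within its last 70 bases, at -70 to -63, -58 to -51 and -45 to -38, the last matching on both strands. C3ar1 held an AP-1 match at -22 to -16, a motif that reads on both strands. Such matches are common: of all 32851 windows of that length in the table, 23.3% held GAGGAA, 6.75% TGANTCA and 36.8% TTNNGNAA. Of the 26 genes described here that had an entry, 8 held GAGGAA, 6 TGANTCA and 11 TTNNGNAA. A gene with several start sites was counted once, as holding a match if any of its windows did. The shares above count single windows, so the figures are not on the same footing. GAGGAA lay before C1qb, C1qc and F13a1, with adipocyte ratios below 0, and before Tfpi, Tfpi2 and Plaur, with ratios above 0. It also lay before F7 (-0.03) and Cd59a (0.02), whose adipocyte ratios changed sign between settings. A match describes letters and is not evidence of binding.

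The proteases that C1q and the lectins activate did not pass 2-fold in culture. C1r, the first protease of the C1 complex, had an adipocyte log2 ratio of -0.13, with its probes at -0.37 and 0.10, and a tissue ratio of 0.34. C1s, which C1r activates, was at 0.50 in adipocytes and 0.04 in tissue. Masp1, a protease of the lectin pathway, was at 0.55 in adipocytes and -0.54 in tissue. C2 and C4b, the substrates of these proteases, were at -0.34 and -0.51 in adipocytes and at 0.33 and 0.58 in tissue. None of these 5 genes reached 2-fold on either array, except Masp1 in culture with Feature Extraction's ratios (1.11) and those of the deposited table. Mouse C1r, C1s and C4b each have a near-identical copy, and the probes may read both.

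C3, the component on which all pathways meet, and factor B were lower in the KO culture. For C3 the log2 level was 10.39 in WT and 8.98 in KO adipocytes, 2.66-fold lower (-1.41), and 11.12 in WT and 10.97 in KO tissue (-0.15). Its adipocyte probes disagreed in size: the bright one, at 55414567 to 55414626 on chromosome 17, fell from 13.98 to 11.69 (-2.29), and the dim one, at 55435522 to 55435679, was at -0.53 and not well above background in KO. Cfb, which encodes factor B, the protease of the alternative pathway, had levels of 13.05 in WT and 11.55 in KO adipocytes, 2.83-fold lower (-1.5). In tissue its levels were 10.21 in WT and 9.81 in KO (-0.40). Cfp, which encodes properdin, the stabiliser of the alternative convertase, was at -0.78 in adipocytes and at 0.04 in tissue. Its adipocyte value did not reach the 2-fold line in the main setting. All 3 genes of this group were below 0 in culture, with a median of -1.41, against a median of -0.15 in tissue. Cfb and C2 are direct neighbours on chromosome 17, yet their adipocyte ratios were -1.5 and -0.34.

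Regulators and receptors moved in different directions in culture. Cd55, which speeds the decay of C3 convertases, had log2 levels of 9.10 in WT and 7.71 in KO adipocytes, 2.63-fold lower (-1.39), with its kept probes at -1.69 and -1.09. In tissue Cd55 stood at 8.30 in WT and 8.77 in KO (0.47), and its probes were at -0.07 and 1.01. Cd55 has a near-identical copy, Cd55b, which was itself lower in the KO culture, at least 2.18-fold, its KO signal being not well above background. Serping1, which encodes the C1 inhibitor, stood at 10.45 in WT and 11.31 in KO adipocytes (0.86) and at 11.26 and 11.39 in tissue (0.13). Cd59a, an inhibitor of the membrane attack complex, was at 0.02 and -0.22 on the adipocyte and the tissue array. Cd46, a membrane cofactor, was measured in tissue only, at 0.20, its WT signal being not well above background. That ratio was 0.01 with outlier spots kept, and without loess it was -0.20 relative to the median of all genes, so that no direction is given. C3ar1, the receptor for the fragment C3a, stood at 9.37 in WT and 8.11 in KO adipocytes, 2.38-fold lower (-1.25), with both probes lower, and at 6.87 and 6.98 in tissue (0.11). C5ar1, the receptor for C5a, was at -0.06 in adipocytes and not well above background in tissue. Cfi, the protease that inactivates C3b, was not well above background on either array.

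**Figure D2:**
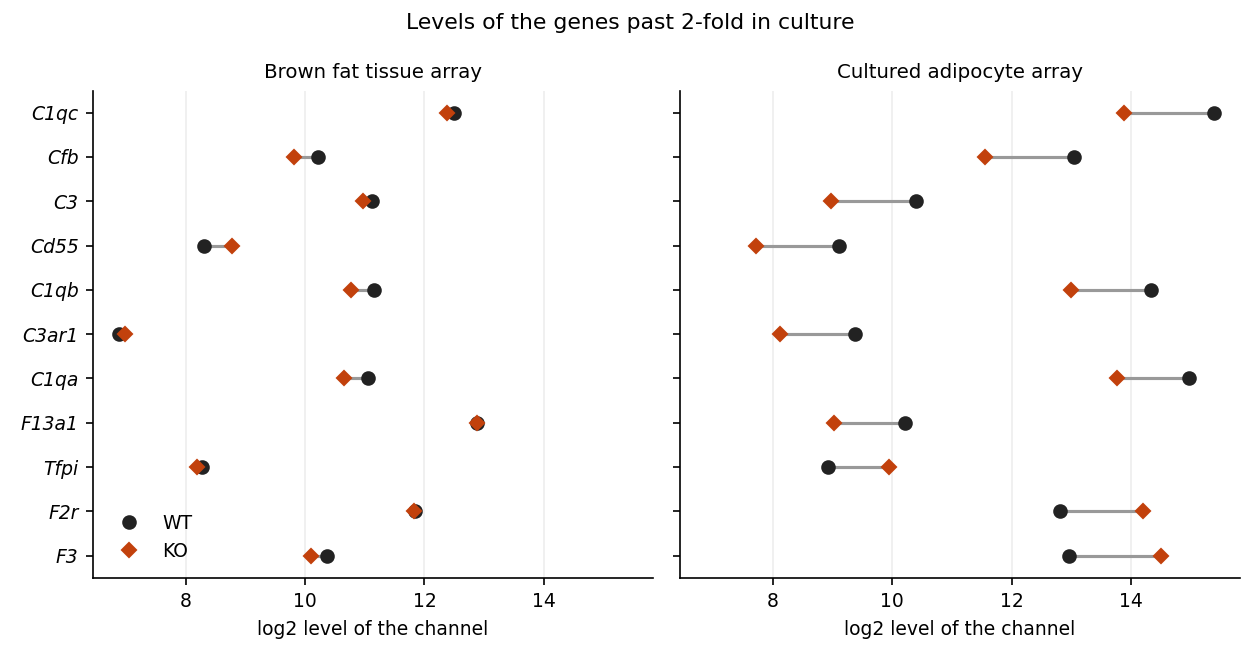
Log2 level in the WT and the KO channel for the genes at least 2-fold different in adipocytes, with circles for WT, diamonds for KO, a line joining both values of a gene, and tissue and adipocytes in separate panels. In adipocytes the diamonds of C1qa, C1qb, C1qc, C3, Cfb, Cd55, C3ar1 and F13a1 lie left of the circles and those of F3, F2r and Tfpi right of them, while in tissue the symbols lie at most 0.47 apart.

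Among the clotting genes, tissue factor and the thrombin receptor were higher and F13a1 lower in the KO culture. F3, which encodes tissue factor, the membrane protein that starts clotting, had log2 levels of 12.96 in WT and 14.50 in KO adipocytes, 2.90-fold higher (1.54), with its probes at 1.5 and 1.57. In tissue F3 stood at 10.36 in WT and 10.09 in KO (-0.27). Without loess its tissue ratio was 0.21, or -0.04 relative to the median of all genes (0.25). F2r, the main thrombin receptor, stood at 12.82 in WT and 14.20 in KO adipocytes, 2.59-fold higher (1.37), and at 11.84 and 11.82 in tissue (-0.02). F13a1, the catalytic chain of the fibrin-crosslinking factor XIII, stood at 10.21 in WT and 9.03 in KO adipocytes, 2.28-fold lower (-1.19), the smallest difference among the 8 lower genes. In tissue it was at 12.88 in both genotypes. F7, the partner of tissue factor, was dim on both arrays, at -0.03 in adipocytes (0.15 without loess). In tissue its WT signal was not well above background, and its ratio of 0.07 was -0.19 without loess, so that no direction is given. F5 and F10, which form prothrombinase, were measured in tissue only, at -0.24 and -0.20.

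The windows before F3 and F2r are shown for the AP-1 letters that both carry, in the notation used above.
F3 (chr3:121723287-121723536, plus strand): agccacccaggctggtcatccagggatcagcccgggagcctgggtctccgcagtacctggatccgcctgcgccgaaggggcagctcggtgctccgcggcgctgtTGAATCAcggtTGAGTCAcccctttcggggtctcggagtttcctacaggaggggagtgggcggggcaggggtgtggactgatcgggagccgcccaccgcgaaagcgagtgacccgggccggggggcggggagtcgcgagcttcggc
F2r (chr13:95618467-95618716, minus strand): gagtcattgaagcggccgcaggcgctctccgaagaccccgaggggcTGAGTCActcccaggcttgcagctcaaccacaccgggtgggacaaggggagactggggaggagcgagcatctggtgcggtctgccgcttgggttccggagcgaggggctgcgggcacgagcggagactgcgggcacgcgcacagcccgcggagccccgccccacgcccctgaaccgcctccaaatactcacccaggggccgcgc

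F3 held AP-1 letters at -146 to -140 and at -135 to -129, and F2r at -204 to -198, where 6.75% of all windows held at least 1 such match. Tfpi, the other gene that was at least 2-fold higher, had windows without these letters. They also lay before C3ar1, which was lower in the KO culture (-1.25), and before Procr (0.26), Plaur (0.96) and Tfpi2 (0.62, in 1 of its windows).

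The 6 anticoagulant genes were all above 0 in the KO culture, with a median of 0.40 and a range of 0.02 to 1.01, and in the main setting Tfpi alone reached 2-fold. Tfpi2 passed as well with no offset, with Feature Extraction's ratios (1.33) and with the deposited table. Without loess 3 of them were below 0 (Procr -0.08, Pros1 -0.16, Anxa5 -0.45), where the median of all genes was -0.26. Relative to that median Procr was at 0.18, Pros1 at 0.10 and Anxa5 at -0.20. The common direction thus did not hold for Anxa5 in that setting, and the sign of the small ratios depended on the dye balance. Tfpi, which encodes the inhibitor of tissue factor and factor VII, had log2 levels of 8.93 in WT and 9.94 in KO adipocytes, 2.02-fold higher (1.01), with its 4 kept probes between 0.82 and 1.21. That lies just past the 2-fold line, and without loess Tfpi was at 0.67, or 0.93 relative to the median of all genes. In tissue its levels were 8.27 in WT and 8.19 in KO (-0.08). Tfpi2, a related inhibitor, stood at 6.42 in WT and 7.04 in KO adipocytes (0.62) and at 6.93 and 6.60 in tissue (-0.33). Thbd, which encodes thrombomodulin, the thrombin cofactor on endothelium, stood at 10.63 in WT and 11.16 in KO adipocytes (0.53) and at 11.74 and 11.55 in tissue (-0.19). Procr, the endothelial receptor of protein C, was at 0.26 in adipocytes and 0.01 in tissue. Pros1, which encodes protein S, stood at 11.45 in WT and 11.70 in KO adipocytes (0.25) and at 11.16 and 11.13 in tissue (-0.03). Anxa5, a binder of phosphatidylserine, was at 0.02 in adipocytes and 0.17 in tissue. Gas6, a relative of protein S that is a ligand of the TAM receptor kinases, stood in culture at 15.45 in WT and 15.40 in KO (-0.05), and in tissue at 12.80 and 12.46 (-0.34).

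Plasminogen activators and their partners did not pass 2-fold, apart from Plau (1.22) and Plaur (1.05) in culture with Feature Extraction's ratios and those of the deposited table, and Plaur also with no offset in the background correction. Plat, which encodes tissue plasminogen activator, stood at 10.39 in WT and 10.32 in KO adipocytes (-0.07) and at 9.59 and 9.22 in tissue (-0.37). Plau, which encodes urokinase, stood at 7.10 in WT and 7.69 in KO adipocytes (0.59), and at 7.46 and 7.33 in tissue (-0.13). Plaur, the urokinase receptor, came closest to the line, at 8.85 in WT and 9.81 in KO adipocytes, 1.94-fold higher (0.96), with its probes at 0.93 and 0.99. In tissue Plaur stood at 8.63 in WT and 8.77 in KO (0.15). Serpine2, a serpin that inhibits thrombin and plasminogen activators, stood at 9.56 in WT and 10.16 in KO adipocytes (0.61) and at 8.18 and 8.03 in tissue (-0.15). Serpinf1, which encodes pigment epithelium-derived factor, a serpin that does not inhibit proteases, stood at 14.37 in WT and 14.77 in KO adipocytes (0.41) and at 11.29 and 11.25 in tissue (-0.04).

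**Figure D3:**
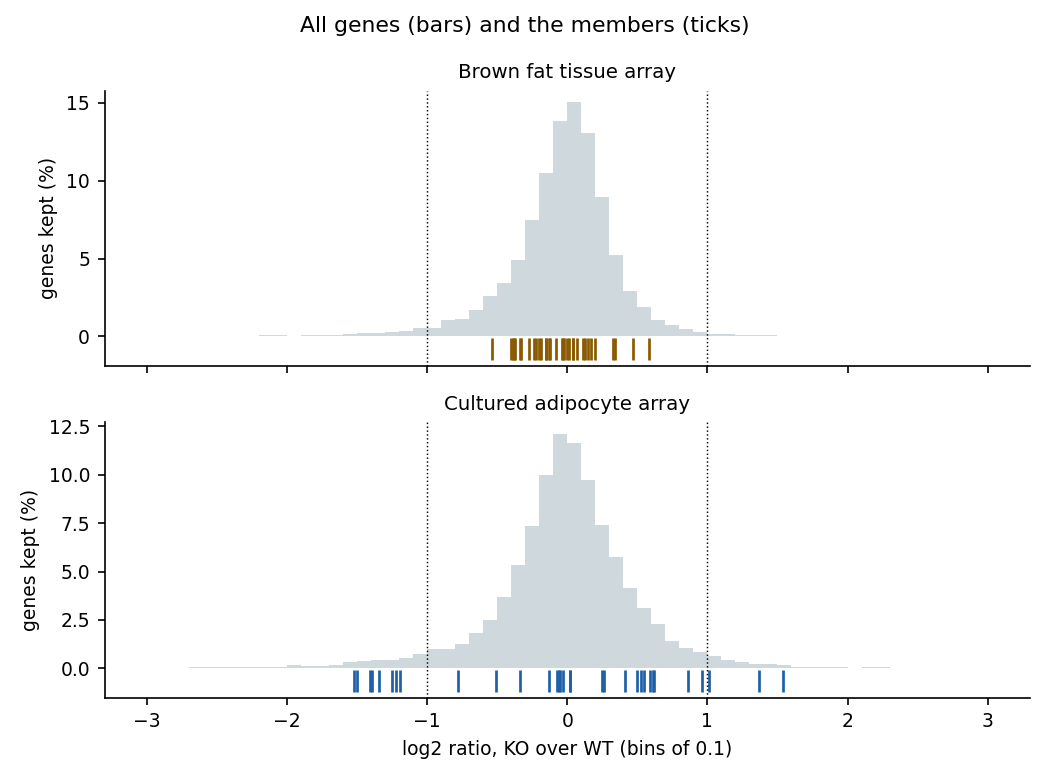
Distribution of log2 ratios over all genes measured on each array, with the ratios of the complement and coagulation genes drawn as ticks and dotted lines at a 2-fold difference. The axis ends at a log2 ratio of 3 in either direction, beyond which 11 genes lay in tissue and 43 in adipocytes, none of them in the set, and the ticks spread to both sides in adipocytes but stay near 0 in tissue.

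Other genes of these cascades were taken from lists of 40 complement and 50 coagulation genes. In culture 26 of the 40 complement genes were measured, 5 were at least 2-fold lower and 1 higher, and their median was 0.01. The lowest was Cfd, which encodes factor D (adipsin), the fat-cell protease that cleaves factor B: its level was 12.93 in WT and 7.26 in KO adipocytes (-5.67). The tissue went the other way, with Cfd at 15.82 in WT and 17.61 in KO (1.78). Itgb2, the shared chain of the leukocyte complement receptors, was at -1.0, and Cd55b is given above. Colec10, a collectin of the lectin pathway, was at 1.04 on 1 probe. Its WT level of 6.30 was close to 6.18, the lowest WT level well above background on that array. In tissue 26 complement genes were measured, with a median of 0.08, and besides Cfd only Cpn2, a subunit of the carboxypeptidase that inactivates C3a and C5a, passed 2-fold (-1.47).

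Of the 50 other coagulation genes, 33 were measured in culture with a median of 0.16. Mertk, the TAM kinase that Gas6 and protein S engage on macrophages, was lower in KO, at 10.62 in WT and 9.14 in KO (-1.48), while its relatives Tyro3 and Axl were at 0.67 and 0.24. In tissue 36 were measured with a median of -0.06 and 0 were at least 2-fold lower. Those at least 2-fold higher in KO tissue were Proz (1.79, with 1 of 3 probes kept), a cofactor in the inhibition of factor X, and Lrp1 (1.19, probes at 0.77 and 1.62), a clearance receptor. With outlier spots kept they were at 0.27 and 0.71, and Proz was at 0.73 without a filter on dim probes.

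Markers of cell types differed between the cultures beside these genes. Macrophage markers were at least 2-fold lower in the KO culture in 17 of 23 cases, with a median of -1.38, and their summed level on the linear scale was 339174 in WT and 93429 in KO. Csf1r was at -1.83, Adgre1 at -1.76, Lyz2 at -2.06 and Cd68 at -0.83, and all 23 markers were well above background in both channels on at least 1 probe. Adipocyte markers were at least 2-fold lower in 17 of 17 cases, with a median of -3.49 and a summed level of 295010 in WT and 20533 in KO. Adipoq was at -5.22 and Fabp4 at -5.58. Smooth muscle markers were at least 2-fold higher in 5 of 8 cases, with a median of 1.40 and a summed level of 43243 in WT and 162414 in KO. Fibroblast markers had a median of 0.09 over 14 genes, with 0 past 2-fold, and summed to 81524 in WT and 71580 in KO. Endothelial markers had a median of 0.00 over 14 genes, with 1 at least 2-fold lower and 2 higher (Ecscr 1.43, Flt1 1.35), and the defining Pecam1 and Cdh5 were not well above background in the KO culture. Platelet markers had a median of -0.23 over 10 genes, with Pf4 at -0.47 and Itga2b at 0.02. Alb, the defining hepatocyte gene, was not well above background on either array. None of the marker lists holds any of the 36 genes, while Cfd is also one of the adipocyte markers and Itgam one of the macrophage markers. In RNA of a whole culture or tissue, fewer cells of a type and less RNA per cell cannot be told apart, and the part of these cell types in the complement and coagulation ratios was not tested.

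In the tissue, macrophage markers had a median of 0.02 over 22 genes, with 0 past 2-fold and summed levels of 34594 in WT and 33359 in KO. Adipocyte markers had a median of 0.01 over 16 genes, with Ucp1 at least 2-fold lower (-1.84) and Cfd (1.78) and Cidea (1.01) higher. Without loess 0 adipocyte markers were at least 2-fold lower and 7 higher, where the median of all genes was 0.25. Only 1 was higher with no offset, with Feature Extraction's ratios, with the deposited table or with outlier spots kept. Skeletal muscle markers were at least 2-fold lower in 15 of 16 cases, with a median of -2.72 and summed levels of 502663 in WT and 89898 in KO, and endothelial markers had a median of -0.21. Prkg1 had 4 probes: those well above background in both channels were at -1.29 and -1.22 in tissue and at -0.94 and -2.31 in adipocytes, and the others were dim. The sex of the mice is not stated. In tissue Xist stood at 7.36 in WT and 11.78 in KO (4.41), and the Y-linked Eif2s3y at 12.75 in WT and 6.35 in KO (-6.40). The KO signal of Eif2s3y was not well above background there, so sex and genotype cannot be told apart on the tissue array. In adipocytes Xist stood at 10.04 in WT and 6.68 in KO (-3.36), and Eif2s3y at 12.37 in WT and 12.26 in KO (-0.12). The Y-linked Ddx3y stood at 10.25 in WT and 10.86 in KO adipocytes (0.61). All of these signals were well above background, so the WT culture held both Xist and Y-linked RNA. The cultures cannot be taken as matched for sex, and sex and genotype cannot be told apart on the adipocyte array either. The part of sex and of muscle in the values above was not tested.

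**Figure D4:**
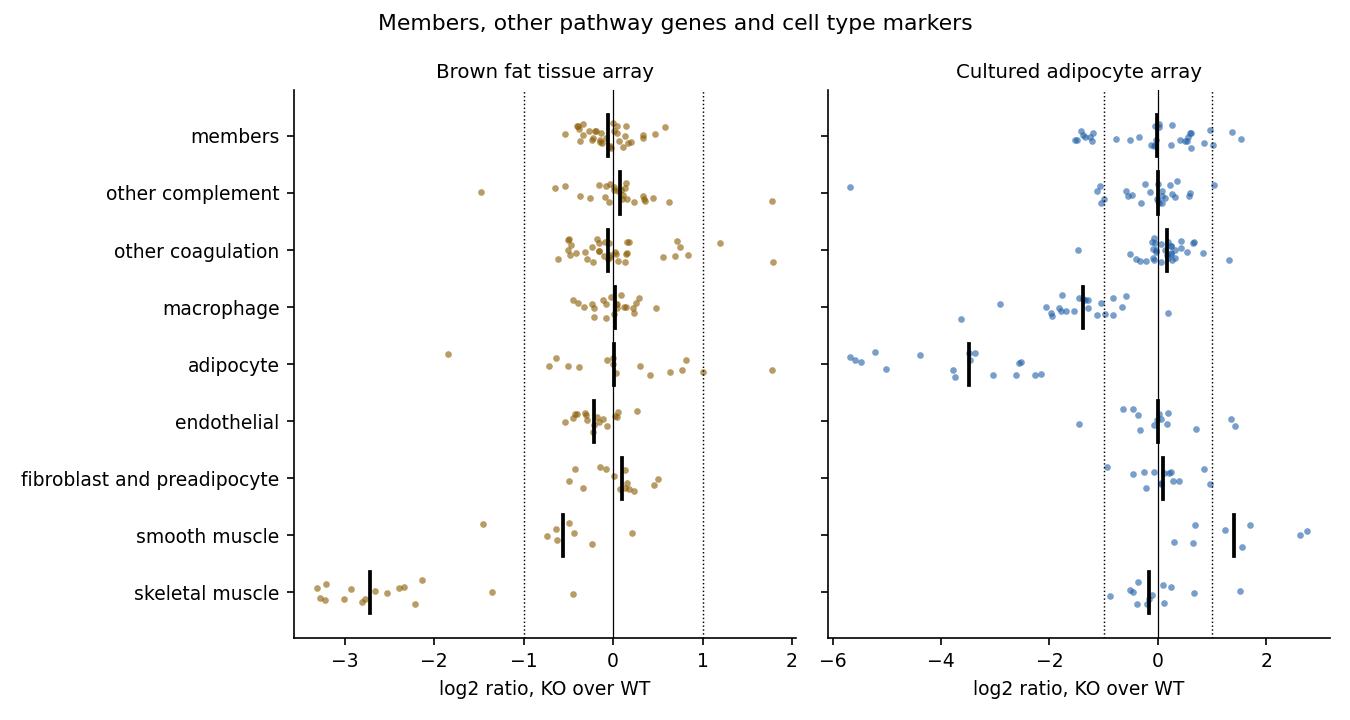
Log2 ratios of each gene in the lists of marker and pathway genes on the tissue and the adipocyte array, 1 point per gene with the median of each list marked, and with a separate horizontal scale for each array. Macrophage and adipocyte markers lie to the left and smooth muscle markers to the right in adipocytes, skeletal muscle markers lie to the left in tissue, and the medians of the complement and coagulation genes lie near 0 on both, with their adipocyte values spread from -1.52 to 1.54.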

How the data were processed

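RNA of 4 samples was measured on 2 Agilent mouse arrays of 2 colours. The deposited scanner files give, per the file headers, the intensity of each spot (mean signal and median local background in both dyes) and the red over green log10 ratio, from Agilent Feature Extraction 9.5.1.1 run with protocol GE2-v5_95_Feb07. The value table deposited by the authors gives log10 ratios too. Compared with the scanner files, those were Feature Extraction's ratio, KO over WT, within 0.0165 as log2, with 7623 gene spots in tissue and 6968 in adipocytes left empty for a reason that is not stated.

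R 4.3.3 with limma 3.58.1 gave the ratios. Each array held 45018 spots, 1639 of them controls, and gene spots with an outlier flag were left out (1215 in tissue, 203 in adipocytes). Background was corrected with normexp (offset 50) and dyes were balanced by loess, with controls at weight 0; levels were then scaled by Aquantile. Probes well above background in at least 1 channel were kept: 74.1% of KO and 63.1% of WT signals were so in tissue, 68.1% and 70.1% in adipocytes. Where all probes of a gene were dim in 1 channel and a direction is given, the fold is a bound ("at least"). It is taken against that dim signal or, if higher, against the lowest one well above background on the array. The 36 genes were matched by the gene name in the files, and other genes through the RefSeq table of GRCm38.p6 (8455 probes matched none). Promoter windows come from RefSeq (GRCm38.p6). The steps were tested on simulated data. The number of arrays limits the precision.

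The genes named are all 36, with levels in every channel for those past 2-fold and a fixed set of others, plus members of the other lists past 2-fold, up to 5 each way, and defining markers. Some genes of the other lists are not reported here. Tyro3 and Axl were named after their values were seen. The genes, lists and settings were chosen with earlier results of these data known. A list of neutrophil and mast cell markers (median 0.32 in tissue, 0.17 in adipocytes) and the hepatocyte list (0.12 and -0.31) were also run. The 8 alternative settings, and matching through the RefSeq table, are in the closing section.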

Additional observations from a re-analysis of the deposited data

Results flagged for a closer look

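Among genes past 2-fold on one array, Cd55 and F3 had the opposite sign on the other by more than 2 pooled SDs of repeated spots, a limit set after the values were seen. Cd55 was 1.86 higher on the log2 scale in the tissue comparison (0.47) than in the adipocyte comparison (-1.39). Its kept tissue probes disagreed, at -0.07 and 1.01, and its tissue value was 0.16 with outlier spots kept. F3 differed by -1.80, from -0.27 in tissue to 1.54 in adipocytes. Without loess its tissue value was 0.21, or -0.04 relative to the median of all genes (0.25). With 1 array per comparison the difference was not tested.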

How the results depend on the processing

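No paired analysis was possible because each comparison had 1 array and came from no test, and leaving out a replicate was not possible for the same reason. In adipocytes the 8 lower genes were lower by at least 2-fold under all 9 alternatives except that Cd55 was not without a filter on dim probes; median centring added Cfp. The count of higher genes was 3 in the main setting, 5 with normexp offset 0, 7 with Feature Extraction's ratios and with the deposited value table, and 1, F3, with median centring in place of loess (F2r 0.95). Tfpi also fell below 2-fold with the brightest probe or no filter. In tissue 0 genes were higher in the main setting and 1 with Feature Extraction's ratios or the deposited table (C3ar1, 1.37) and 1 with the brightest probe (Cd55, 1.01). Median centring without loess moved the median of all genes to 0.25 in tissue and -0.26 in adipocytes, and that of the 36 genes to 0.29 and -0.26. In tissue the other coagulation genes had 0 to 6 higher and 0 to 3 lower over the alternatives (2 and 0 in the main setting), and the other complement genes up to 4 higher (1). In adipocytes Feature Extraction's ratios gave 3 lower and 2 higher among the other complement genes (5 and 1) and 2 and 4 among the coagulation genes (1 and 1). Relative to the shift without loess the adipocyte values were -1.40 for C1qa, -1.51 for C1qb, -1.72 for C1qc, -1.65 for Cfb, 1.37 for F3 and 1.21 for F2r. Of the recomputed counts and medians, 45 stayed within 1.5 times or the spread of repeated spots, and the 9 others are given above. Of the single-gene and list values, 650 stayed so, 246 moved further, and 0 called values changed sign. Signals near background, such as F7 and Cd46, limit what can be read for those genes.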
